A study of Saccharomyces cerevisiae with 24 samples.

Results

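The strain that lacks RPS18A was set against wild type: 2 arrays of each, 4 of the 24 arrays of a series in which 11 budding yeast strains each lacked 1 ribosomal protein gene. All 9275 probe sets that are not controls were compared, out of 9335 deposited. Wild type was BY4741, a haploid laboratory strain of mating type a, and the deletion (rps18a) is described as isogenic to it. Besides RPS18A no further allele or agent is named for the rps18a cultures. The strain that lacks the other copy, RPS18B (rps18b), and the other 9 deletions served for comparison: rps0a and rps0b of the small ribosomal subunit, and rpl7a, rpl7b, rpl12a, rpl12b, rpl14a, rpl22a, rpl22b of the large subunit. All strains grew in 50 mL of the rich medium YPD at 30 °C, and cells were taken in early log phase. Each array reports RNA of 1 culture, copied from an oligo-dT primer and hybridised to an Affymetrix YG-S98 chip. The labels call the 2 cultures of a strain biological replicates, and no source used here says whether they came from separate transformants.

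Yeast ribosomes consist of a small (40S) subunit, which reads the mRNA, and a large (60S) subunit, which joins amino acids. Rps18 is a protein of the head of the 40S subunit, and it is encoded by a pair of genes, RPS18A (YDR450W) and RPS18B (YML026C), whose products are identical in sequence. Assembly of ribosomes starts in the nucleolus, where RNA polymerase I transcribes the long precursor of the rRNAs, small nucleolar RNAs (snoRNAs) guide its modification and cleavage, and many assembly factors act on it. RNA polymerase III makes the 5S rRNA, the tRNAs and a few other small RNAs.

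The main differences from wild type were these. Signal of a probe set in the rRNA precursor gene RDN37-1, of the snoRNA SNR52 and of 4 tRNA genes was higher. Signal of the small subunit protein gene RPS22B and of a probe set shared by RPS9A and RPS9B was lower, as was that of single genes of reserve carbohydrates (GPH1), glycolysis (HXK1 and TDH1), phosphate and iron supply (PHO5 and FIT2) and stress (DDR48 and YGP1). In all, 62 of 9275 probe sets passed an adjusted p of 0.05 (0.668% of those tested), 21 of them higher (0.226%) and 41 lower (0.442%). They fell into 39 with 1 gene name, from 35 genes, 4 with several names and 19 with none. Among the 19 was 1 unnamed probe set that was higher in every deletion of the series. It read 0.6 to 0.8 in wild type, 6884.8 to 7125.3 in rps18a and 6609.5 to 9578.8 in the large subunit deletions. A difference from wild type need therefore not be particular to rps18a. At an unadjusted p under 0.05 there were 1164 (12.5%), where 464 would be expected with no difference. Without normalization the split was 12 higher and 190 lower of 202, a setting under which the median of all probe sets lay at -0.25 on the log2 scale.

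Intensities are given below per array, wild type replicate 1 and 2 first. Differences are on the log2 scale after quantile normalization, rps18a minus wild type, ± SE, and adjusted p is limma's, corrected over all 9275 probe sets by the Benjamini-Hochberg method. A probe set was taken as above the background of an array when it was brighter than the 95th percentile of the chip's 19 controls with no match in yeast. The arrays of wild type had median intensities of 47.6 and 52.3 against backgrounds of 8.94 and 11.8, and those of rps18a 45.6 and 39.7 against 8.49 and 12.9. The share of probe sets above background was 81.8% and 79.0% in wild type and 83.0% and 74.2% in rps18a, so the second rps18a array was the dimmest of the 4. The a-factor gene MFA1 read 6031.4 and 5353.8 in wild type and 6769.4 and 4131.3 in rps18a, while the alpha-factor gene MF(ALPHA)1 stayed at 19.6 to 30.7. Over all probe sets the wild-type arrays correlated at 0.980 and the rps18a arrays at 0.977. Leaving out 1 array at a time left 21 (wild type replicate 1), 42 (wild type replicate 2), 53 (rps18a replicate 1) or 23 calls (rps18a replicate 2). Of 33 called genes or probe sets followed through these fits, 8, 12, 16 and 9 kept their call in the same order. RDN37-1, SNR52, the tRNA gene SUF23, RPS22B and TDH1 kept it in all 4.

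**Figure D1:**
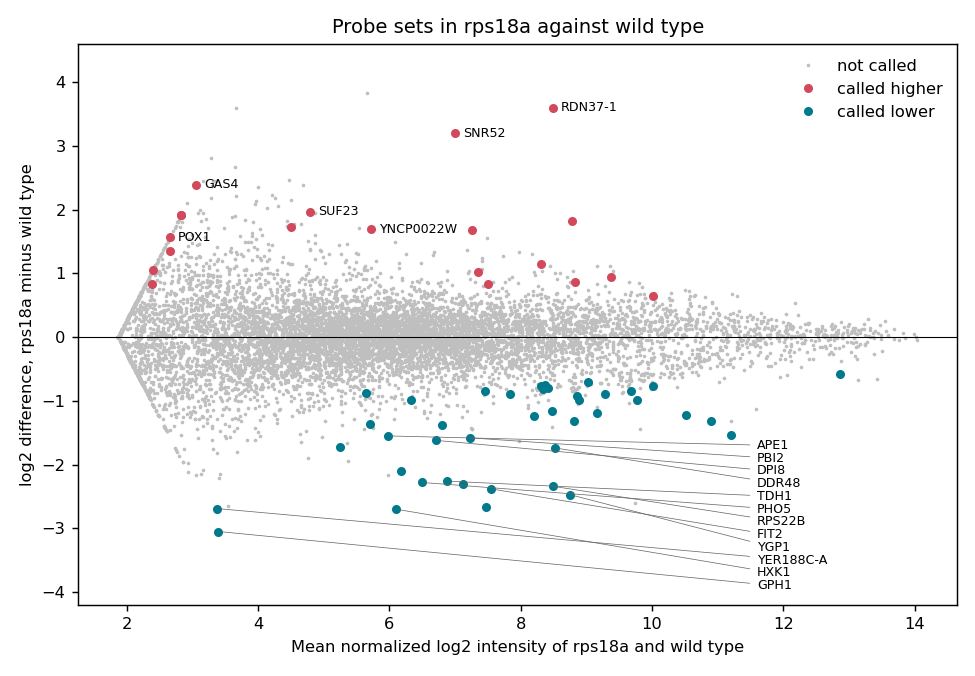
Each point is 1 probe set, with its mean normalized log2 intensity in rps18a and wild type on the x axis and the log2 difference between the strains on the y axis. Red points are the probe sets called higher and blue points those called lower, with the gene names of the larger changes. 1 called unnamed probe set, at 11.01, lies above the drawn range.

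The deleted gene has no probe set of its own, since 1 probe set covers RPS18A and RPS18B together. It read 10627.4 and 10356.0 in wild type and 6137.5 and 5265.4 in rps18a, so that both rps18a arrays lay well below wild type and the strains did not overlap. The normalized difference was -0.58 ± 0.11 (adjusted p = 0.0259). In rps18b the same probe set read 5372.5 and 5834.9, and the deletions of either copy differed by -0.04 with a 95% confidence interval of ±0.23. In the 14 arrays of large subunit deletions it ranged from 6563.7 to 11006.4, with a median of 8503, and in the 4 arrays of rps0a and rps0b from 9066.6 to 10536.3. The 2 strains without an RPS18 copy were thus the lowest of the 12. What remains in rps18a is read from both copies' shared probes, so whether RPS18B changed cannot be told from it. The difference stayed between -0.88 and -0.56 in 13 other settings, but the call was lost in 9 of them (adjusted p = 0.00285 to 0.236), among them leaving out any 1 of the 4 arrays and median centring.

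RNA of RPS22B, and 1 probe set of the RPS9 genes, fell among the other genes of small subunit proteins. RPS22B (YLR367W) encodes a protein of the 40S body and, like RPS18A and RPS9A, is a gene with introns. Its main probe set read 934.2 and 1050.0 in wild type and 161.6 and 121.3 in rps18a, a fall by 2.34 ± 0.26 (adjusted p = 0.000761). 2 further RPS22B probe sets, which can take up RNA of related sequence, also fell, from 3353.3 and 3779.1 to 1114.9 and 859.0 (-1.31 ± 0.19, adjusted p = 0.00598) and from 2527.8 and 2983.6 to 879.6 and 720.2 (-1.22 ± 0.20, adjusted p = 0.0152). All 3 thus fell, by sizes that differ between them. The copy RPS22A, at 18369.8 and 17889.6 against 16574.5 and 14669.7, differed by -0.05 ± 0.11 (adjusted p = 0.926). The snoRNA SNR44, encoded in an intron of RPS22B, read 490.6 and 549.9 against 262.7 and 246.3 (-0.60 ± 0.35, adjusted p = 0.542).

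For Rps9, a protein of the 40S body that acts early in assembly and in decoding, a probe set that names both copies read 355.7 and 339.4 in wild type and 62.7 and 51.4 in rps18a. It fell by 2.30 ± 0.16 (adjusted p = 7.43e-06), the smallest adjusted p among called genes with a name. The RPS9A probe set differed by -0.85 ± 0.19 (946.3 and 1092.3 against 408.3 and 364.7, adjusted p = 0.0575), and it passed without normalization and with median centring. The 2 probe sets of RPS9B differed by -0.01 ± 0.27 and -0.08 ± 0.11. RPS14B, which encodes a protein of the 40S platform, read 2409.6 and 2637.6 against 1192.4 and 972.6, and its normalized difference of -0.59 ± 0.19 did not pass (adjusted p = 0.194). Its copy RPS14A differed by 0.17 ± 0.13.

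The low RPS22B and RPS9 signals were shared with the other small subunit deletions. RPS22B read 92.8 and 124.9 in rps18b and 157.2 to 185.1 in the 4 rps0 arrays, against 207.0 to 1113.9 in the 14 arrays of large subunit deletions, where rpl12a and rpl22a held the low end. The shared RPS9 probe set read 48.6 and 69.8 in rps18b and 63.3 to 91.5 in the rps0 arrays, against 238.1 to 935.1 in the large subunit deletions. For these 2 probe sets, no array of a small subunit deletion overlapped one of wild type or of a large subunit deletion. The other 2 RPS22B probe sets did overlap, with rps0 arrays at 1061.5 to 1232.9 and 886.2 to 1022.0 against lowest values of 1121.3 and 901.3 in the large subunit deletions. Against the mean of the 7 large subunit deletions, a comparison chosen after seeing the data, RPS22B differed by -1.86 ± 0.19 (adjusted p = 0.000152) and the shared RPS9 probe set by -2.72 ± 0.12 (adjusted p = 3.94e-08).

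**Figure D2:**
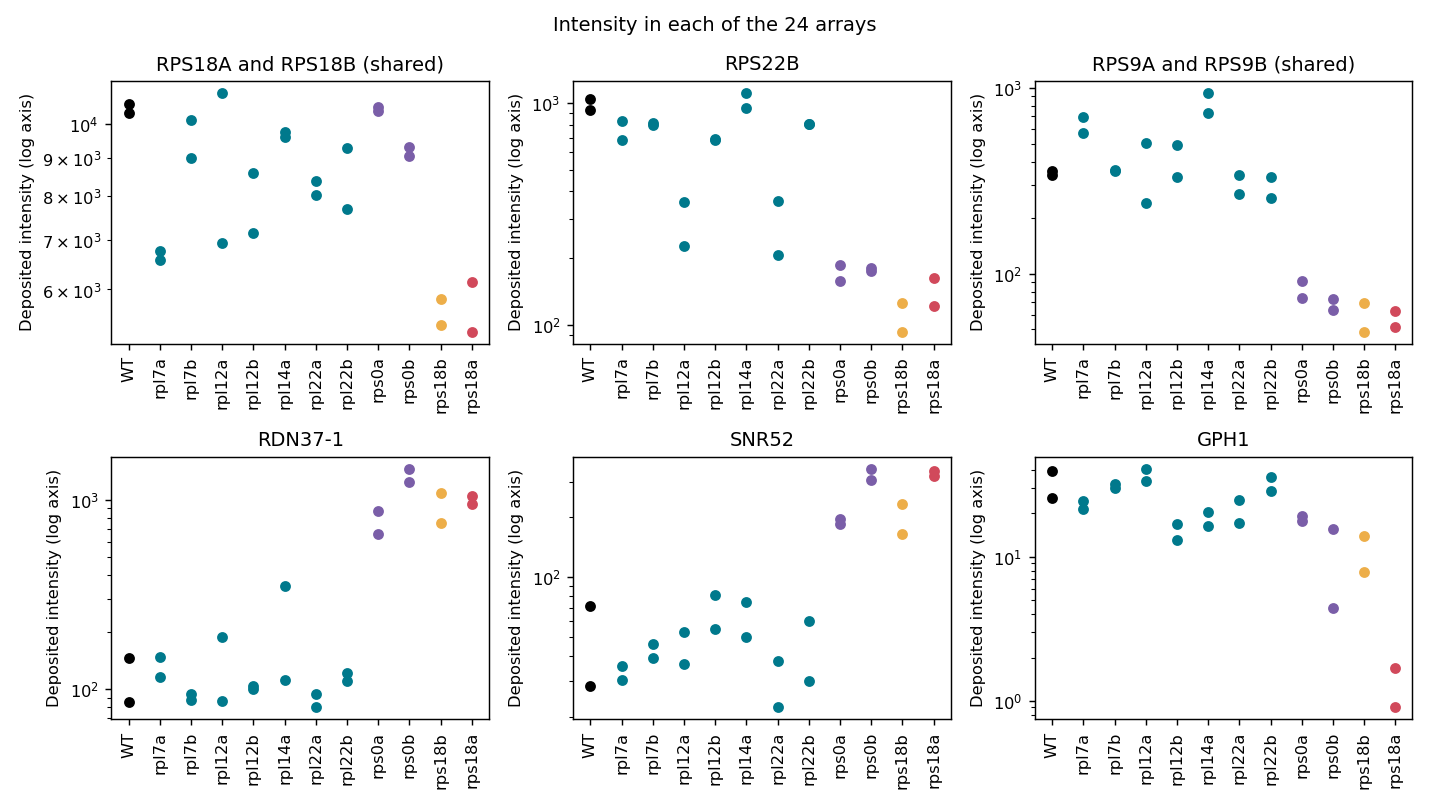
Each panel shows the deposited intensity of 1 probe set on a log axis in the 2 arrays of each of the 12 strains (black wild type, teal large subunit deletions, purple rps0a and rps0b, yellow rps18b, red rps18a). RPS18 is lowest in rps18a and rps18b. RPS22B and RPS9 are low, and RDN37-1 and SNR52 high, in all 4 small subunit deletions. GPH1 is lowest in rps18a, at 0.9 and 1.7.

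Ribosomal protein genes as a class did not shift. Of 5656 genes, each taken by its brightest probe set, 30 were called (0.530%), 10 higher (0.177%) and 20 lower (0.354%), and 715 passed an unadjusted p of 0.05 (12.6%). Among the 34 small subunit protein genes measured by a probe set of their own, RPS22B was the single call, and the median difference was 0.02. Among 47 large subunit protein genes none was called, 2 were higher and 2 lower at an unadjusted p under 0.05, and the median of 0.10 became -0.03 with median centring. The median of all genes was 0.

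Genes that build ribosomes lay above wild type nearly throughout, with few calls. Of 71 small subunit assembly factors, 69 had a positive difference and the median was 0.49. None passed over all probe sets, and 23 were higher and 0 lower at an unadjusted p under 0.05, against 346 higher and 369 lower of all 5656 genes. Of 76 large subunit assembly factors, 75 had a positive difference, the median was 0.48, and 26 were higher and 0 lower at an unadjusted p. The medians were 0.45 and 0.42 relative to all probe sets without normalization, and 0.39 and 0.35 with median centring. NOG2, a GTPase that acts in late nuclear steps of 60S assembly, was the single call among both lists (402.4 and 357.6 against 577.6 and 447.3, 0.86 ± 0.18, adjusted p = 0.0480). Its difference without normalization was 0.42 and did not pass. Others with large values were UTP18, of the complex that processes the small subunit precursor (1.03 ± 0.40, adjusted p = 0.291), LTV1, a factor of 40S maturation (0.93 ± 0.41, adjusted p = 0.369), and NOG1, another GTPase of 60S assembly (1.04 ± 0.34, adjusted p = 0.191).

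RNA polymerases I and III had 1 call among 39 genes, 33 of them positive, with a median of 0.36 that was 0.28 relative to all probe sets without normalization and 0.22 with median centring. That call, RPA135, the second largest subunit of polymerase I, rests on the normalization. Its intensities were 1019.9 and 1038.4 in wild type and 1020.2 and 1071.8 in rps18a, and its difference of 0.64 ± 0.13 (adjusted p = 0.0395) was 0.02 without normalization. RRN3, the initiation factor that brings polymerase I to the promoter, read 144.9 and 100.9 against 261.4 and 197.2, a difference of 1.24 ± 0.27 just outside the threshold (adjusted p = 0.0532). The 2 strains did not overlap for RRN3.

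The largest rises with a gene name were in RNA that is not translated. A probe set of RDN37-1 (YNCL0010C), the transcription unit of the rRNA precursor on chromosome XII, read 85.8 and 146.2 in wild type and 1051.2 and 950.2 in rps18a. It rose by 3.60 ± 0.38, 12.2-fold (adjusted p = 0.000540). The other 6 probe sets assigned to RDN37-1 were not called: one read 552.5 and 793.5 against 618.4 and 781.8 (0.60 ± 0.44), and another 60.1 and 138.8 against 112.8 and 116.3 (0.63 ± 0.50). The rise was therefore that of 1 of 7 probe sets on the same unit. In the other strains this probe set followed the subunit of the missing protein. It read 655.1 to 1456.7 in the rps0 arrays and 752.7 and 1078.5 in rps18b, and 79.9 to 349.1 in the large subunit deletions, with a median of 106.6.

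SNR52, a snoRNA that guides rRNA methylation and is made by RNA polymerase III, read 28.3 and 71.2 in wild type and 320.6 and 338.4 in rps18a (3.20 ± 0.40, adjusted p = 0.00253). It was also high in rps18b, at 163.8 and 231.9, and in the rps0 arrays, at 183.5 to 347.9, and lay between 22.2 and 80.7 in the large subunit deletions. TLC1, the RNA of telomerase, rose from 109.9 and 144.6 to 213.6 and 194.4 (1.02 ± 0.21, adjusted p = 0.0437), and that call was lost without normalization (0.69). RPR1, the RNA subunit of RNase P and a polymerase III transcript, read 98.3 and 98.7 against 238.9 and 172.5 (1.36 ± 0.30, adjusted p = 0.0532). Among the 57 snoRNAs with a probe set, SNR52 was the single call, 48 were positive, and the median was 0.45. At an unadjusted p under 0.05, 18 snoRNAs were higher and 1 lower.

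The 4 spliceosomal snRNAs measured lay 1.30 to 1.71 above wild type with no call. SNR6, the U6 snRNA and a polymerase III transcript, came nearest, with 24.5 and 29.2 against 98.1 and 56.3 (1.71 ± 0.37, adjusted p = 0.0508). SNR14, the U4 snRNA, read 20.8 and 30.9 against 53.7 and 54.2 (1.30 ± 0.31, adjusted p = 0.0679).

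The tRNA genes, the largest class of RNA that is not translated, lay above wild type nearly throughout. Of 91 tRNA genes with a probe set, 88 had a positive difference and the median was 0.95, against 0 for all genes (1.05 relative to all probe sets without normalization and 0.98 with median centring). 4 were called higher, none lower, and 46 were higher at an unadjusted p under 0.05. SUF23, a glycine tRNA gene on chromosome X, rose from 12.2 and 16.7 to 45.4 and 54.0 (1.97 ± 0.26, adjusted p = 0.00356). YNCP0022W rose from 25.1 and 38.1 to 70.4 and 102.2 (1.69 ± 0.34, adjusted p = 0.0401) and YNCJ0015W from 214.1 and 261.5 to 394.1 and 401.0 (1.15 ± 0.19, adjusted p = 0.0152). In the large subunit deletions YNCP0022W read 32.3 to 100.2, with a median of 58.45. From their mean rps18a differed by 0.75 ± 0.26 for this gene (adjusted p = 0.165). EMT5, an elongator methionine tRNA gene, was called (adjusted p = 0.0264), but its levels of 1.8 and 4.4 against 9.4 and 9.2 left 1 of 4 arrays above background. YNCP0004C, at 2.4 and 1.9 against 23.6 and 23.5, was not above background in wild type and was not called (adjusted p = 0.0559).

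Most tRNA probe sets were close to the background, and tRNA genes of a family share nearly all of their sequence, so single genes cannot be told from their copies. The share of the 91 probe sets above background was 63.7% and 64.8% in the wild-type arrays and 90.1% and 82.4% in those of rps18a. Over all genes that share was 93.0% and 91.4% in wild type and 93.5% and 87.3% in rps18a. The labelled RNA was copied from oligo-dT, and what the signal of RNA with no regular poly(A) tail stands for here, the level of the RNA or of a polyadenylated form, was not tested.

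**Figure D3:**
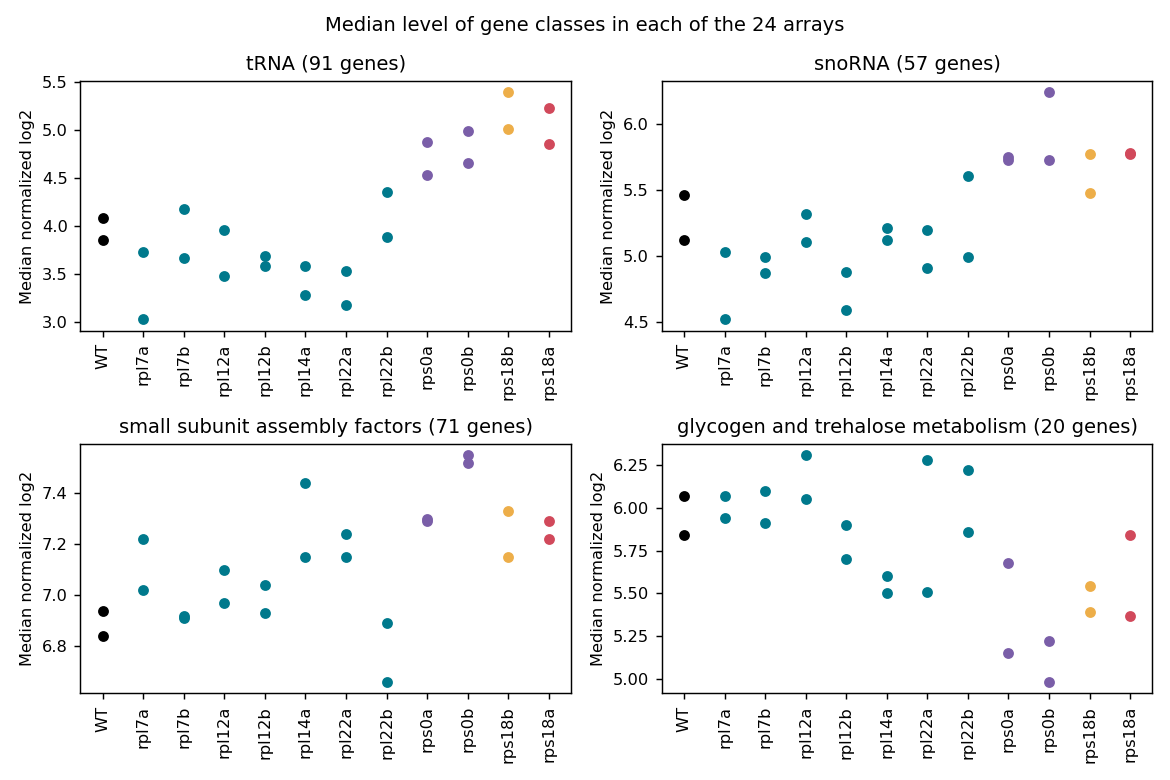
Each panel gives the median normalized log2 level of a class of genes in each of the 24 arrays, with colours for strains as in the panels of intensities. For tRNA genes the rps18a arrays, at 4.85 and 5.23, lie among the other small subunit deletions (4.53 to 5.39) and above wild type (3.86 and 4.08) and the large subunit deletions (3.03 to 4.35). Small subunit assembly factors overlap between the 2 kinds of deletion.

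Coding genes that rose were few: NOG2 and RPA135, described above, SRP68 and GAS4, and HAC1 and POX1 by a probe set other than their brightest. HAC1 encodes the transcription factor of the unfolded protein response. Its called probe set read 496.4 and 608.9 against 693.8 and 804.9 (0.95 ± 0.17, adjusted p = 0.0257), while the other 4 HAC1 probe sets, at 0.05 to 0.64, were not called. SRP68, a subunit of the signal recognition particle, rose from 141.1 and 160.1 to 236.1 and 187.9 (0.83 ± 0.16, adjusted p = 0.0378). The HAC1 and SRP68 calls were lost without normalization, at 0.44 and 0.49.

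GAS4, a glucan-modifying enzyme known from spore wall formation, was not above background in wild type (3.3 and 3.2) and read 16.6 and 18.3 in rps18a, at least 1.86-fold higher (adjusted p = 0.0401). POX1, the acyl-CoA oxidase of peroxisomes, was at least 1.05-fold higher by 1 of its 4 probe sets (2.0 and 0.3 against 8.9 and 11.3, adjusted p = 0.0327), and the other 3 were not called. Both genes stayed dim in rps18a. A probe set shared by COX1 and its intron reading frames on the mitochondrial genome rose from 7.4 and 22.0 to 34.0 and 41.8 (1.73 ± 0.34, adjusted p = 0.0346). Neither this rise nor that of GAS4 was particular to rps18a. The COX1 probe set read 12.9 to 61.3 in the large subunit deletions and 21.0 to 45.2 in the rps0 arrays, and GAS4 3.9 to 25.8 and 10.6 to 41.2. From the mean of the large subunit deletions rps18a differed by 0.36 ± 0.26 (adjusted p = 0.580) for COX1 and 1.00 ± 0.36 (adjusted p = 0.193) for GAS4.

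Genes of reserve carbohydrates lay below wild type. Glycogen and trehalose are the storage sugars that yeast builds up as growth slows. GPH1 (YPR160W), the glycogen phosphorylase, read 25.4 and 39.7 in wild type and 1.7 and 0.9 in rps18a, where it was not above background, and was at least 2.67-fold lower (fitted difference -3.05 ± 0.42, adjusted p = 0.00494). It was the single call among 20 genes of glycogen and trehalose metabolism, of which 19 were negative, with a median of -0.54, and 9 were lower and 0 higher at an unadjusted p under 0.05. Among the others NTH1, the neutral trehalase, read 123.7 and 160.9 against 64.6 and 66.0 (-0.81 ± 0.18, adjusted p = 0.0559). TSL1, a subunit of the trehalose synthase complex, read 142.7 and 232.2 against 70.9 and 58.3 (-1.21 ± 0.49, adjusted p = 0.307). The array medians of the list were 5.84 and 6.07 in wild type and 5.37 and 5.84 in rps18a, so that rps18a replicate 2 reached the lower wild-type array.

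In glycolysis, 2 of 33 genes fell. HXK1, a hexokinase used on sugars other than glucose, fell from 164.8 and 225.8 to 20.3 and 29.7 (-2.70 ± 0.55, adjusted p = 0.0405). TDH1, the form of glyceraldehyde-3-phosphate dehydrogenase found in slow-growing and stressed cells, fell from 345.2 and 240.3 to 55.4 and 42.7 (-2.26 ± 0.30, adjusted p = 0.00326). For both genes the arrays of the 2 strains did not overlap. ENO1, an enolase, read 5440.4 and 5101.9 against 1424.4 and 1942.2 (-1.13 ± 0.24, adjusted p = 0.0508), and GLK1, the glucokinase, 397.2 and 643.3 against 135.6 and 116.8 (-1.63 ± 0.44, adjusted p = 0.106). The list had a median of -0.16, with 27 genes negative and 10 lower at an unadjusted p.

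Several stress and stationary-phase genes fell. YGP1, a secreted glycoprotein made when nutrients run short, fell from 1268.7 and 1251.3 to 211.6 and 121.2 (-2.47 ± 0.37, adjusted p = 0.00854). DDR48, a stress-induced protein, fell in both of its probe sets, from 833.4 and 813.7 to 250.9 and 122.5 (-1.74 ± 0.31, adjusted p = 0.0190) and from 5080.1 and 4324.5 to 1386.0 and 867.2 (-1.53 ± 0.27, adjusted p = 0.0188). It was the single call among 43 heat shock and general stress genes, whose median was -0.14, with 14 lower and 0 higher at an unadjusted p. HSP12, a stress protein of the membrane, differed by 0.18 ± 0.83, and HSP26, a small chaperone, by -0.79 ± 0.32 (adjusted p = 0.312). Of vacuolar proteins, PBI2, an inhibitor of proteinase B, fell by 1.58 ± 0.23 (300.4 and 275.3 against 87.8 and 67.3, adjusted p = 0.00598). APE1, a vacuolar aminopeptidase, fell by 1.55 ± 0.32 (110.3 and 128.2 against 28.2 and 40.3, adjusted p = 0.0480).

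Further falls were spread over metabolism and the cell surface. STF1, a regulator of the mitochondrial ATP synthase, fell by 1.38 ± 0.27 (192.8 and 203.3 against 49.5 and 77.8, adjusted p = 0.0346). WSC4, a membrane protein of the family of cell wall sensors, fell by 1.36 ± 0.22 (95.1 and 87.5 against 27.0 and 33.3, adjusted p = 0.0125). DPI8 fell by 1.62 ± 0.28 (196.2 and 207.6 against 60.3 and 48.1, adjusted p = 0.0188). The remaining named genes fell by less, from 0.98 ± 0.20 for MCR1, a mitochondrial cytochrome b5 reductase, through YOR034C-A, YNK1, the nucleoside diphosphate kinase, and MDH2, the cytosolic malate dehydrogenase, to 0.75 ± 0.12 for MHP1. Against the mean of the large subunit deletions MCR1 (-0.73 ± 0.15, adjusted p = 0.0194) and MHP1 (-0.39 ± 0.09, adjusted p = 0.0327) were lower too. YOR034C-A (-0.26 ± 0.12, adjusted p = 0.352), YNK1 (-0.43 ± 0.13, adjusted p = 0.106) and MDH2 (-0.17 ± 0.10, adjusted p = 0.491) did not pass there. YOR034C-A read 31.6 to 59.8 in the large subunit deletions, all below wild type (69.7 to 76.5). YER188C-A was at least 2.32-fold lower by 1 of 3 probe sets (adjusted p = 0.0146), and the other 2 differed by 0.34 ± 0.16 and 0.05 ± 0.19. That probe set read 27.4 to 27.7 in wild type and was lower in every deletion. It read 2.7 to 25.7 in the large subunit deletions, 4.3 to 5.1 in the rps0 arrays and 5.0 to 9.9 in rps18b. From the mean of the large subunit deletions rps18a differed by -0.94 ± 0.33 (adjusted p = 0.179).

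Among genes of phosphate supply, the secreted acid phosphatases fell. PHO5 read 182.2 and 262.3 in wild type and 29.0 and 47.1 in rps18a (-2.28 ± 0.35, adjusted p = 0.00854). A probe set shared by PHO11 and PHO12 fell from 392.9 and 662.6 to 42.1 and 96.3 (-2.66 ± 0.45, adjusted p = 0.0175). Low levels of both were not particular to rps18a. In the large subunit deletions PHO5 had a median of 68.8 (39.6 to 635.2) and the shared probe set 75.55 (34.6 to 3312.5). In the rps0 arrays PHO5 read 39.8 to 61.0 and the shared probe set 48.3 to 213.5. In rps18b they read 24.6 to 48.4 and 45.8 to 93.5. PHO5 was the single call among 23 genes of the phosphate regulon with a probe set of their own, whose median was -0.34 (-0.50 relative to all probe sets without normalization), with 7 lower and 1 higher at an unadjusted p. PHO84, the high-affinity phosphate transporter, read 2076.8 and 3180.7 against 60.2 and 1478.1, and its difference of -2.60 ± 1.12 did not pass (adjusted p = 0.347). The 2 rps18a cultures were far apart for PHO84, both below wild type. VTC3, of the vacuolar polyphosphate polymerase complex, read 235.5 and 338.6 against 61.2 and 113.8 (-1.44 ± 0.34, adjusted p = 0.0679).

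Of the 33 genes of the iron regulon 1 fell. FIT2, a mannoprotein of the cell wall that retains iron bound to siderophores, read 589.4 and 402.6 against 107.9 and 48.2 (-2.38 ± 0.45, adjusted p = 0.0303). Its relative FIT3 read 2258.0 and 1524.4 against 555.2 and 370.7 (-1.44 ± 0.32, adjusted p = 0.0532), whereas FET3, the high-affinity iron oxidase, differed by 0.32 ± 0.27. The median of the list was -0.13, and 6 genes were lower and 0 higher at an unadjusted p.

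In amino acid synthesis 1 of 66 genes fell, BAT2, the cytosolic branched-chain aminotransferase (810.2 and 811.9 against 376.5 and 315.6, -0.70 ± 0.15, adjusted p = 0.0488). The median of the list was 0, and -0.21 relative to all probe sets without normalization. BAT2 was also below wild type in the large subunit deletions, at 195.4 to 784.0. From their mean rps18a differed by -0.19 ± 0.11 (adjusted p = 0.490). In purine synthesis 1 of 24 fell, ADE17, of its last steps (908.5 and 821.4 against 281.6 and 217.3, -1.31 ± 0.25, adjusted p = 0.0295). ADE17 had a median of 477 (228.5 to 821.8) in the large subunit deletions and read 223.2 to 380.0 in the rps0 arrays. From the mean of the large subunit deletions rps18a differed by -0.70 ± 0.19 (adjusted p = 0.0741). Neither list moved in 1 direction at an unadjusted p, with 4 higher and 8 lower in amino acid synthesis and 3 higher and 2 lower in purine and one-carbon metabolism.

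Retrotransposon sequence was lower as well. Ty elements are yeast retrotransposons present in many near-identical copies, which these probe sets cannot separate. Of 23 probe sets assigned to YGR109W-B, a Ty open reading frame, 22 were negative, with a median of -0.64, and 2 were called lower (-0.89 ± 0.17, from 317.2 and 392.3 to 155.5 and 137.9, and -0.84 ± 0.17, from 254.5 and 271.7 to 137.5 and 98.3). Of the 12 unnamed probe sets called lower, 10 are of the chip's class for sequence families, with differences of -1.23 to -0.77. That class is not limited to Ty elements, and whether these 10 report Ty sequence was not tested. The probe sets at -1.23 and -0.77 were below wild type (523.7 to 527.8 and 1673.2 to 1693.5) in the large subunit deletions too, at 145.9 to 438.7 and 629.3 to 1575.5. From the mean of those deletions rps18a differed by -0.51 ± 0.19 (adjusted p = 0.218) and -0.34 ± 0.12 (adjusted p = 0.177). Others of the 10 passed there, at -0.57 ± 0.13 (adjusted p = 0.0338) and -0.50 ± 0.11 (adjusted p = 0.0353).

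**Figure D4:**
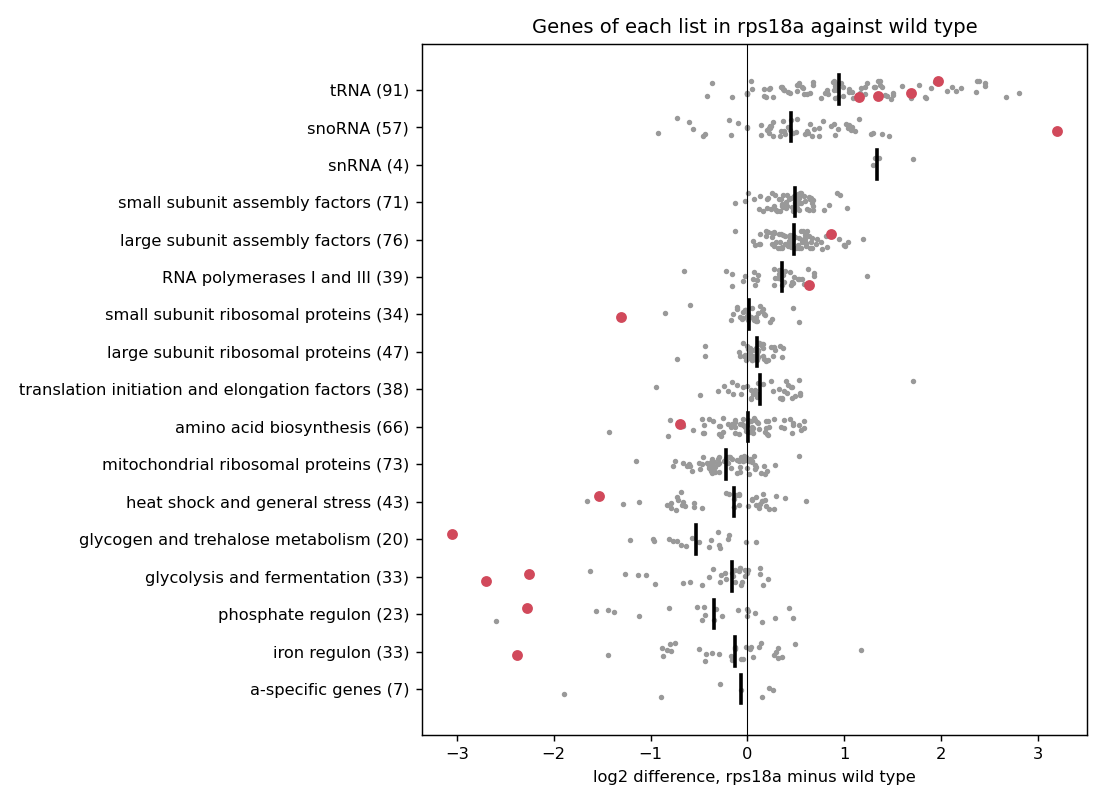
Each grey point is the log2 difference between rps18a and wild type of 1 gene, by list or RNA class, with the number of genes in parentheses. Black bars mark medians and red points the genes called. tRNA genes and assembly factors lie to the right of 0 and glycogen and trehalose genes to its left, with few called in any list.

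Lists that cover other functions gave no call over all probe sets. Mitochondrial ribosomal proteins had a median of -0.22 with 56 of 73 negative and 4 lower at an unadjusted p. Among 30 genes of the pheromone response, FIG1, a membrane protein of mating cells, read 24.4 and 38.6 against 1.7 and 5.0 (adjusted p = 0.0839), and AGA1, the anchor of a-agglutinin, 1033.5 and 1041.4 against 421.2 and 258.8 (-1.10 ± 0.27, adjusted p = 0.0681). Translation factors (median 0.13) and the proteasome (median 0.24) turned to -0.02 and -0.03 with median centring. Oxidative phosphorylation, sulfur and methionine metabolism, hexose transporters, ergosterol synthesis, pre-mRNA processing and mRNA turnover had medians between -0.20 and 0.14. The chromosomes of the nuclear genome had median differences between -0.06 and 0.07, and of the 7 genes measured next to RPS18A on chromosome IV, at -0.69 to 0.40, none was called.

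Set against the deletion of the other copy, rps18a showed almost no called difference. The comparison addresses whether it matters which RPS18 gene is lost. Wild-type arrays enter neither mean, only the pooled spread and the normalization. Of 9275 probe sets 1 passed (0.0108%), an unnamed one at the background in both strains, and limma gave 444 at an unadjusted p under 0.05 (4.79%), fewer than the 464 expected with no difference. Of the 5656 genes 0 were called by limma, and 219 passed an unadjusted p of 0.05 (3.87%). For some of the genes that differed most from wild type the interval included 0, and its width shows how large a difference could have gone undetected. RDN37-1 differed between the deletions by 0.19 with a 95% confidence interval of ±0.81, SNR52 by 0.71 ± 0.85, SUF23 by 0.05 ± 0.56, RPS22B by 0.27 ± 0.55, PHO5 by -0.02 ± 0.74 and TDH1 by -0.57 ± 0.63.

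Of the 62 probe sets called against wild type, 26 had an interval between the 2 deletions that excluded 0, and 36 had one that included it. Of the 26 only the unnamed one at background passed. The 62 were picked with the same 2 rps18a arrays, so the 26 cannot be set against the share among all probe sets. Over the 62 the median size of the difference was 0.38 between the deletions and 1.35 from wild type. Besides the genes given below, WSC4, BAT2 and MHP1 were lower in rps18a by their intervals. EMT5 and POX1, at background in rps18b, were higher. GPH1 read 7.8 and 13.9 in rps18b against 1.7 and 0.9 in rps18a, and with 1 rps18b array above background the difference of -1.72 ± 0.91 (interval) had an adjusted p of 0.564. STF1 read 103.9 and 111.5 in rps18b against 49.5 and 77.8 (-0.93 ± 0.58, adjusted p = 0.788). YGP1 (-0.84 ± 0.80) and DPI8 (-0.72 ± 0.60) were also lower in rps18a by their intervals. So was YER188C-A (-1.01 ± 0.95), at background in both deletions. GAS4, at background in rps18b, was higher (1.66 ± 1.04, adjusted p = 0.788). The YGR109W-B probe sets differed by a median of -0.58 between the deletions, and the 2 called against wild type by -0.83 ± 0.37 and -0.68 ± 0.37 (adjusted p = 0.391 and 0.569). SRP68 was higher in rps18a, at 236.1 and 187.9 against 139.8 and 120.9 (0.59 ± 0.35, adjusted p = 0.759). As classes, the tRNA genes had a median of -0.14 between the deletions, the snoRNAs -0.04, and the small and large subunit assembly factors 0.10 and 0.12, each with 0 calls.

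**Figure D5:**
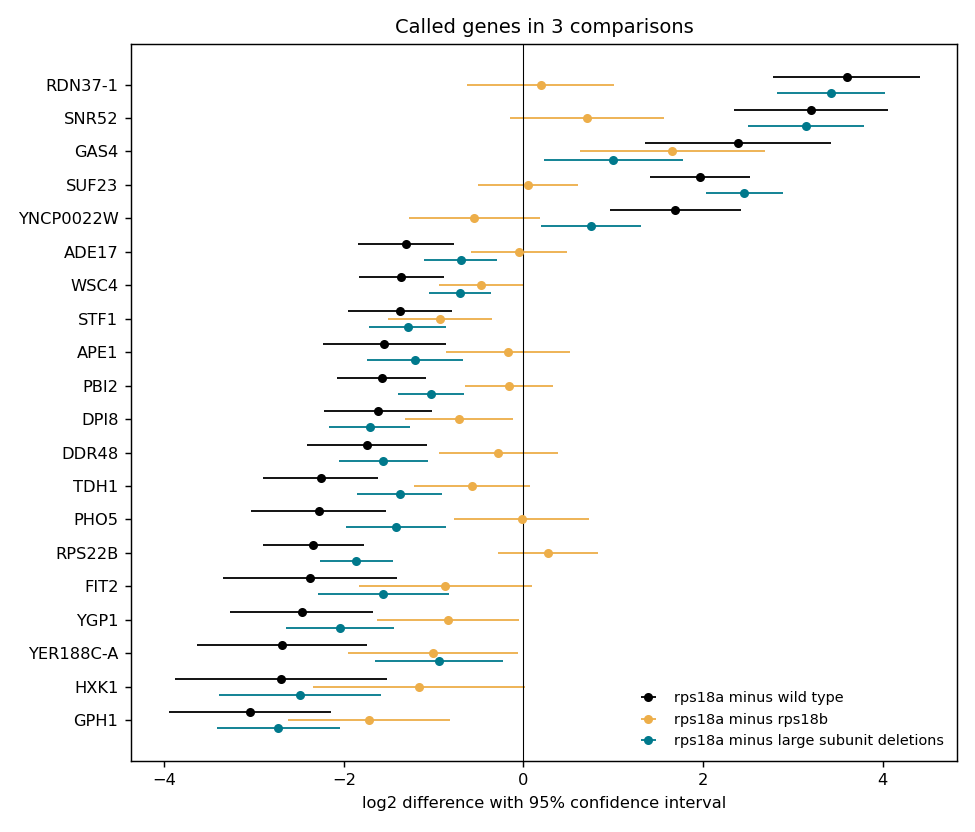
Log2 differences with 95% confidence intervals for the 20 named genes with the largest called differences from wild type that were above background. Black is rps18a minus wild type, yellow rps18a minus rps18b and teal rps18a minus the mean of the large subunit deletions. Most yellow intervals include 0, whereas black and teal intervals lie on the same side. For GPH1, GAS4 and YER188C-A 1 of the strains was at background, and the fitted value is no bound.

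Against the mean of the other 10 deletions 49 probe sets passed (0.528%), 30 higher (0.323%) and 19 lower (0.205%), and 11 and 13 without normalization. At an unadjusted p under 0.05 there were 978 (10.5%). Of the 49 probe sets that passed, 10 carry names of genes deleted in the averaged strains and are set by the design. Of the other 39, RDN37-1 (2.48 ± 0.28, adjusted p = 0.000654), SNR52 (2.42 ± 0.29, adjusted p = 0.00127) and SUF23 (2.02 ± 0.19, adjusted p = 0.000195) were higher. GPH1 (fitted difference -2.40, adjusted p = 0.00256), YGP1 (-1.58, adjusted p = 0.0184), DPI8 (-1.31, adjusted p = 0.0101) and ARG4, of arginine synthesis (-0.88, adjusted p = 0.000590), were lower. Of the 91 tRNA genes 6 were higher and 0 lower, against 29 called of all 5656 genes (0.513%), 15 of them higher (0.265%) and 14 lower (0.248%). Without rps18a replicate 2 the count was 12.

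The mean of 10 deletions mixes strains of both subunits, and the result depended on which were used. In comparisons added after seeing the data, 216 probe sets differed between rps18a and the 7 large subunit deletions (2.33%), 119 higher and 97 lower, or 206, 110 higher and 96 lower, without those of genes deleted in the strains. Only 6 differed from the 3 other small subunit deletions (0.0647%), and 3 of these are probe sets of RPS0A and RPS0B, which 2 of the 3 strains lack. The other 3 were POX1 and 2 unnamed probe sets. At an unadjusted p under 0.05 limma gave 1383 (14.9%) and 351 (3.78%).

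The comparisons with the large subunit deletions and with wild type share the 2 rps18a arrays, so their values for the RNA classes are given side by side and are not independent. Against the large subunit deletions 26 of 91 tRNA genes were higher (28.6%), against 78 of all 5656 genes (1.38%), and the median was 1.09. Of 57 snoRNAs 14 were higher (24.6%, median 0.59), among them SNR52 (3.15 ± 0.30, adjusted p = 7.69e-05), SNR128, which acts in 18S rRNA processing (1.32 ± 0.21, adjusted p = 0.00375), SNR63 (1.25 ± 0.20, adjusted p = 0.00375) and SNR8 (1.52 ± 0.25, adjusted p = 0.005). Of the 4 snRNAs 2 were higher, SNR6 (1.88 ± 0.28, adjusted p = 0.00289) and SNR14 (1.34 ± 0.24, adjusted p = 0.00822). Against the 3 other small subunit deletions the tRNA median was 0.02 and the snoRNA median 0, with 0 calls in either class.

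Coding genes also differed between rps18a and the large subunit deletions. In glycolysis 6 of 33 genes were lower, HXK1 (-2.49 ± 0.42, adjusted p = 0.00647) and TDH1 (-1.38 ± 0.22, adjusted p = 0.00512) among them, and in glycogen and trehalose metabolism 3 of 20. These counts stand against 77 lower of 5656 genes (1.36%). In amino acid synthesis 7 of 66 were lower and 1 higher. The lower ones were ARG1 (-1.96 ± 0.41, adjusted p = 0.0213), ARG4 (-1.19 ± 0.10, adjusted p = 1.54e-05) and ARG7 (-0.87 ± 0.13, adjusted p = 0.00290) of arginine synthesis, HIS4 and HIS5 of histidine synthesis (-0.87 ± 0.17 and -1.03 ± 0.17), LYS1 of lysine synthesis and HOM3, the aspartate kinase. GLT1, the glutamate synthase, was higher (0.53 ± 0.12, adjusted p = 0.0288). Against wild type ARG1 (-1.43 ± 0.54, adjusted p = 0.271) and ARG4 (-0.45 ± 0.13, adjusted p = 0.132) did not pass. PCL5, a cyclin that promotes turnover of the activator of amino acid synthesis genes, was lower as well (-1.02 ± 0.13, adjusted p = 0.00111), and against wild type it differed by -0.28 ± 0.18 (adjusted p = 0.584). The large subunit deletions were not alike for these genes. ARG4 read 852.4 to 1904.3 in the arrays of rpl12a, rpl14a and rpl22a and 297.1 to 489.8 in the other 4 strains, against 251.4 and 256.8 in rps18a. PCL5 read 213.6 to 774.9 and 124.9 to 185.3 in the same order, against 118.0 and 89.2.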

How the data were processed

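The intensities, as deposited by the authors, are linear, 1 for each probe set in each array. No source used here says how they were summarised from probes or scaled. A floor of 3.6 (10th percentile of the whole table) was set, and log2 values were quantile normalized. Names and RNA classes came from the platform annotation, updated through the current names of the yeast reference. In all, 6504 probe sets have 1 name, 328 several and 2443 none. limma 3.58.1 in R 4.3.3 (data.table version 1.17.8) fitted 12 strain means over 24 arrays (12 residual degrees of freedom), with Benjamini-Hochberg adjustment over 9275 probe sets. Spread between replicates, pooled over strains, sets the precision, and 2 arrays per strain limit it. Where a strain was above background in neither array, a fold is a bound ("at least"): the brighter strain's level over the dimmer strain's background. The limma fit and the calling of probe sets were tested on simulated data, but the floor, the normalization and the background rule were not.

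The members and the 30 lists were chosen with earlier results of these data known. Named genes are RPS18A and RPS18B, up to 15 highest and lowest called probe sets with 1 name against wild type and 10 in other comparisons, from each list the 4 members at most that differed most, neighbours of RPS18A and strain markers. Other called genes, further list members and the RNA classes were named after their values were seen. Alternatives were other normalizations, floors, filters, limma options and array sets.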

Additional observations from a re-analysis of the deposited data

Results flagged for a closer look

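1 unnamed probe set differed between the deletions of the 2 RPS18 copies by 0.93 ± 0.13 (adjusted p = 0.0401), which is also the test of whether the 2 strains differ from wild type by unequal amounts. It read 7.3 and 5.7 in rps18a and 2.9 and 1.9 in rps18b and was above background in none of these 4 arrays. It was the single call of that comparison, and no call came out when values were left unnormalized, when arrays were centred on the median or when the dimmest 25% of probe sets were left out.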

How the results depend on the processing

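Counts of called probe sets depended on the setting. Against wild type the 62 calls became 202 without normalization (12 higher, 190 lower), 102 with median centring, 105 with a floor at the 25th percentile (14.1), 38 with log2(value + 1), 128 with a trended, robust limma prior and 1 with only the 4 arrays compared, where 2 residual degrees of freedom remain. Leaving out 1 array gave 21 to 53, and filtering on background, a setting added after seeing the data, 77. Against rps18b the single call became 0 without normalization, with median centring, with log2(value + 1), without the dimmest 25%, with trend and robust options, with only the arrays compared and with the replicate block, and leaving out 1 array gave 1 to 9. Against the other 10 deletions 49 became 24 without normalization, 30 with log2(value + 1), 78 with trend and robust options, 12 to 60 when 1 array was left out, 27 without rpl7a, rpl12b and rpl14a, 86 without rps18b, 216 with only the large subunit deletions and 6 with only the other small subunit deletions. In the last setting RPS22B stood at 0.09 and 1 probe set of RPL7A at -0.04, with the sign turned. Another probe set of RPL7A stood at 0.09 and kept its sign. Of 33 called named genes or probe sets against wild type, none turned its sign, and 26 kept their call without normalization, 27 with median centring and 0 with only the 4 arrays. Same-numbered arrays of rps18a and wild type deviated together at a correlation of 0.0637, and over pairs of strains at -0.0148 to 0.191, so the numbers were not taken as pairs. With the replicate number as a block the counts were 163 against wild type (all 62 among them), 0 against rps18b and 103 against the other deletions. Dim genes are limited by background: 74.2% to 83.0% of probe sets lay above it in the 4 arrays.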
